A study of Mus musculus with 24 samples.

Results

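The dual-specificity MAPK phosphatases described here were 7 genes, Dusp1, Dusp2, Dusp4, Dusp5, Dusp6, Dusp10 and Dusp16, chosen by name and read from every array probe assigned to one of these symbols. They had 8 of the 26437 probes with a gene name, among 20028 gene symbols measured. Dusp16 (NM_130447) had 2 probes and the others 1 each (Dusp1 NM_013642, Dusp2 NM_010090, Dusp4 NM_176933, Dusp5 NM_001085390, Dusp6 NM_026268, Dusp10 NM_022019).

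RNA came from Th1 (14 arrays) and Th2 (10 arrays) cells that had been differentiated in culture from T cells of female C57BL/6 mice. The cells had received DMSO as vehicle, JQ1 at 50 or 500 nM, which blocks BET bromodomain proteins, or 1 or 10 µM of flavopiridol, which blocks cyclin-dependent kinases including the one of the elongation factor P-TEFb, and were left unstimulated or were reactivated. Treatment lasted 6 hr, with further Th1 arrays at 24 hr for DMSO and 500 nM JQ1; for Th2 cells with DMSO the labels give both 6 and 24 hr, and the agent of reactivation is not given in the labels. Each of the 24 conditions had 1 array, on which the sample (Cy3) was hybridized together with the same kind of reference (Cy5), naive CD4+CD62L+CD25-CD44lo T cells taken from spleens and lymph nodes. All levels below are therefore log2 ratios of sample over naive cells, and no condition had a replicate. The tests treat cell types, states, doses and times as repeats of a comparison, so their p-values measure the spread between such pairs, and whether these came from separate cultures is not stated.

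Dual-specificity MAPK phosphatases switch off MAP kinases by removing phosphate from both the threonine and the tyrosine of the activation loop. Several are themselves switched on by the kinases they restrain, so that their transcripts rise within hours of T cell receptor signalling and limit its duration. DUSP1, DUSP2, DUSP4 and DUSP5 are nuclear and inducible, DUSP6 is cytoplasmic and acts on ERK, and DUSP10 and DUSP16 act mainly on JNK and p38.

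Promoter sequences were matched for 6 of the 7 genes, all but Dusp4, and 5 are printed because these genes behaved differently on reactivation (rises of Dusp2, Dusp5 and Dusp6, no call for Dusp1, a fall of Dusp10). Each is the 250 bases before the RefSeq transcription start (GRCm38.p6), 5′ to 3′ on the gene's strand. Dusp1 lies on the minus strand at chr17:26508473-26508722, and the others on the plus strand, Dusp2 at chr2:127335909-127336158, Dusp5 at chr19:53528895-53529144, Dusp6 at chr10:99262981-99263230 and Dusp10 at chr1:184034131-184034380. Capitals mark matches, on either strand, to the cAMP response element (CRE, TGACGTCA), its core (TGACG, which the full element contains), an EGR site (GCGGGGGCG), an NF-kB site or a CArG box, the site of serum response factor.
Dusp1: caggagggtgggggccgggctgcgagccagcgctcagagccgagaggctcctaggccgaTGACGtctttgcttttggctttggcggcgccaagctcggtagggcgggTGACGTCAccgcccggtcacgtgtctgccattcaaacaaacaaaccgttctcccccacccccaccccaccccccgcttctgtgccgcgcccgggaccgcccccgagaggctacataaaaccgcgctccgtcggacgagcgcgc
Dusp2: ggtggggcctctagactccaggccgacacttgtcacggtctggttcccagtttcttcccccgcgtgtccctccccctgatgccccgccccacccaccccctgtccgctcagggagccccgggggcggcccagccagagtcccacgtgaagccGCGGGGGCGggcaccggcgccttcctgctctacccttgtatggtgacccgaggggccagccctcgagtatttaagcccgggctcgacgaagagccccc
Dusp5: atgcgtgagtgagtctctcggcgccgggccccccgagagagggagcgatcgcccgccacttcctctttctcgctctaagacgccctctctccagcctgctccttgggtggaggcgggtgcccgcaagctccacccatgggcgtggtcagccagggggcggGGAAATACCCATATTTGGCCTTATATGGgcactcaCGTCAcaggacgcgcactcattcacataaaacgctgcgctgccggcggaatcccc
Dusp6: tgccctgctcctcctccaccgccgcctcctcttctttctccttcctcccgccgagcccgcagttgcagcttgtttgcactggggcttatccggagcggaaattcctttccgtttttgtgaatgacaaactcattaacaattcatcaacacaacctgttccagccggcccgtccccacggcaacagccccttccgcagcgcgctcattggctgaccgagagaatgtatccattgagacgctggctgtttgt
Dusp10: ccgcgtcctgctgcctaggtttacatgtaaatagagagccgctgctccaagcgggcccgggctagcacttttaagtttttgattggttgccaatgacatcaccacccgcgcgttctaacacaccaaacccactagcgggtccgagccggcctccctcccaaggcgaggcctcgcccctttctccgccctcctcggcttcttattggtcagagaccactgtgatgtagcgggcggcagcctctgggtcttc
The full CRE was found in Dusp1 (508 of 32851 promoters, 1.55%, hold one) and the core in Dusp1, Dusp5 and Dusp16 (17.8% of all). Dusp2 held the EGR site (2.57% of all), and Dusp5 held an NF-kB site (1.41% of all) that overlaps the first of its CArG boxes (1.47% of all). Neither Dusp6 nor Dusp10 held any of these letters in this window, and none of the 6 promoters held an AP-1 site (TGANTCA, 6.75% of all). The matched genes that rose together on reactivation (Dusp2, Dusp5, Dusp6 and Dusp16, without Dusp4) thus shared none of the marked motifs across all of them. G and C made up 56.4% of the Dusp6 promoter and 59.6% of that of Dusp10, against 64 to 70.4% in the other matched promoters and a median of 52.4% over all promoters.

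Probes well above background in Cy3 made up 43.8 to 52% of those on DMSO and JQ1 arrays and 35.4 to 41.5% on flavopiridol arrays. The arrays filled 3 slides: each reactivated array shared its slide with its unstimulated partner, Th1 JQ1 arrays shared one with their DMSO control, and Th2 JQ1 and all flavopiridol arrays lay on other slides than their controls, so that slide and drug cannot be told apart there. The reference channel of the Dusp probes differed by 0.23 to 0.91 (log2) between the 24 arrays, and between pairs of arrays the SD of all reference signals had a median of 0.185. All 7 T cell markers were above background on every array. Without flavopiridol, and leaving out the 24 hr arrays, the summed Cy3 signal of 7 Th1 markers was 425000 to 738000 in reactivated Th1 cells against 10600 to 17200 in reactivated Th2 cells, and that of 6 Th2 markers 1950 to 4940 against 25100 to 37200. On the 8 flavopiridol arrays, both cell types and states together, these sums were 1140 to 87900 and 1900 to 2830. Of the Th2 markers, Il1rl1 went the other way, at 1.60 (log2) in reactivated Th1 over Th2 cells with DMSO. The remaining Th2 markers were at -4.95 (Il4) to -1.14 (Il13) in that comparison.

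Reactivation without drug was compared first, over 3 pairs of DMSO arrays (Th1 at 6 hr, Th1 at 24 hr and Th2). Of the 7 genes, 5 were higher and 1 was lower after reactivation, against 51% of all 12534 genes tested called in either direction, 21.9% higher and 29% lower (limma, Benjamini-Hochberg adjusted p under 0.05). The median change of the 7 was 1.61 (log2) and that of all genes -0.054. As the RNA was bulk, fewer cells of a type and less RNA per cell cannot be told apart in any of these values.

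Dusp4, a nuclear phosphatase of ERK and JNK, changed most. Its level was 3.24 in unstimulated Th1 cells at 6 hr, 0.98 at 24 hr and 0.69 in Th2 cells, and 5.27, 5.48 and 5.53 in the reactivated partners. The reactivated arrays lay close together and the unstimulated arrays far apart, without overlap between the states. The mean change was 3.79 (SE 0.51, adjusted p = 0.0016), a 13.9-fold rise, and lay between 3.27 (without unstimulated Th2 cells) and 4.67 (without unstimulated Th1 cells at 6 hr) with 1 array left out. Naive cells had little Dusp4 signal, with the reference spot above background on 11 of 24 arrays.

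Dusp2, a nuclear phosphatase abundant in activated lymphocytes, crossed the naive level. It was -1.65, -1.27 and -2.28 in unstimulated cells (Th1 6 hr, Th1 24 hr, Th2) and 0.92, 1.71 and 1.19 after reactivation. Unstimulated T helper cells thus had less Dusp2 than naive cells on all 3 arrays, and reactivated cells had more. The rise was 3.0 (SE 0.19, adjusted p = 0.000223), with 2.57, 2.98 and 3.47 in the single pairs.

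Dusp6, the cytoplasmic ERK phosphatase, went from -0.30, -1.27 and -1.39 to 1.34, 2.19 and 2.67 in the same order. Here too the states did not overlap and the naive level lay between them. The mean rise was 3.06 (SE 0.43, adjusted p = 0.00185), with changes of 1.63 in Th1 cells at 6 hr, 3.47 at 24 hr and 4.07 in Th2 cells, and it was 2.55 and 3.77 without the same arrays as for Dusp4.

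Dusp5, a nuclear phosphatase specific for ERK, rose from 1.03 to 2.55 in Th1 cells at 6 hr and from 0.58 to 2.28 at 24 hr. In unstimulated Th2 cells it was -0.041, and the spot of the reactivated Th2 array carried the scanner software's outlier flag and was dropped, so that the rise of 1.61 (SE 0.16, adjusted p = 0.00108) rests on the 2 Th1 pairs (1.52 and 1.71) and holds no Th2 value. With the flagged spot kept, its level would be 3.33 and the rise 2.20. Dusp16 moved from 3.28, 1.97 and 1.32 to 4.01, 3.55 and 3.26. All 3 pairs rose, by 0.73, 1.58 and 1.95, with a mean of 1.42 (SE 0.24, adjusted p = 0.00347). Dusp16 overlapped narrowly between the states, from 3.26 (reactivated Th2) to 3.28 (unstimulated Th1, 6 hr). Its second probe, whose reference spot was never above background, followed the first with r = 0.876 over 24 arrays.

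Dusp10, which acts on JNK and p38, went the other way. It was below the naive level on all 6 arrays, at -1.13, -1.54 and -0.47 in unstimulated cells and -1.92, -2.21 and -1.13 in reactivated cells. The ranges overlapped between cell types, but each pair fell by a similar amount, and the change was -0.70 (SE 0.12, adjusted p = 0.0039). Scaling to the spike-in controls after loess raised the median of all genes in this comparison from -0.054 to 0.23, and Dusp10 was then at -0.42 and not called, while it was still called with spike-in centring (-0.49) and median centring (-0.81). Dusp1, the early-response phosphatase of JNK and p38, was 0.57, -0.36 and -0.49 before and 0.91, 0.97 and -0.46 after reactivation. It did not pass the test (0.57, SE 0.25, adjusted p = 0.106): the difference was 1.33 in Th1 cells at 24 hr and 0.028 in Th2 cells. Under both spike-in scalings it was called, at 0.78 and 0.85, as it was in 2 of 6 refits with 1 array left out (0.18 to 0.84).

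**Figure D1:**
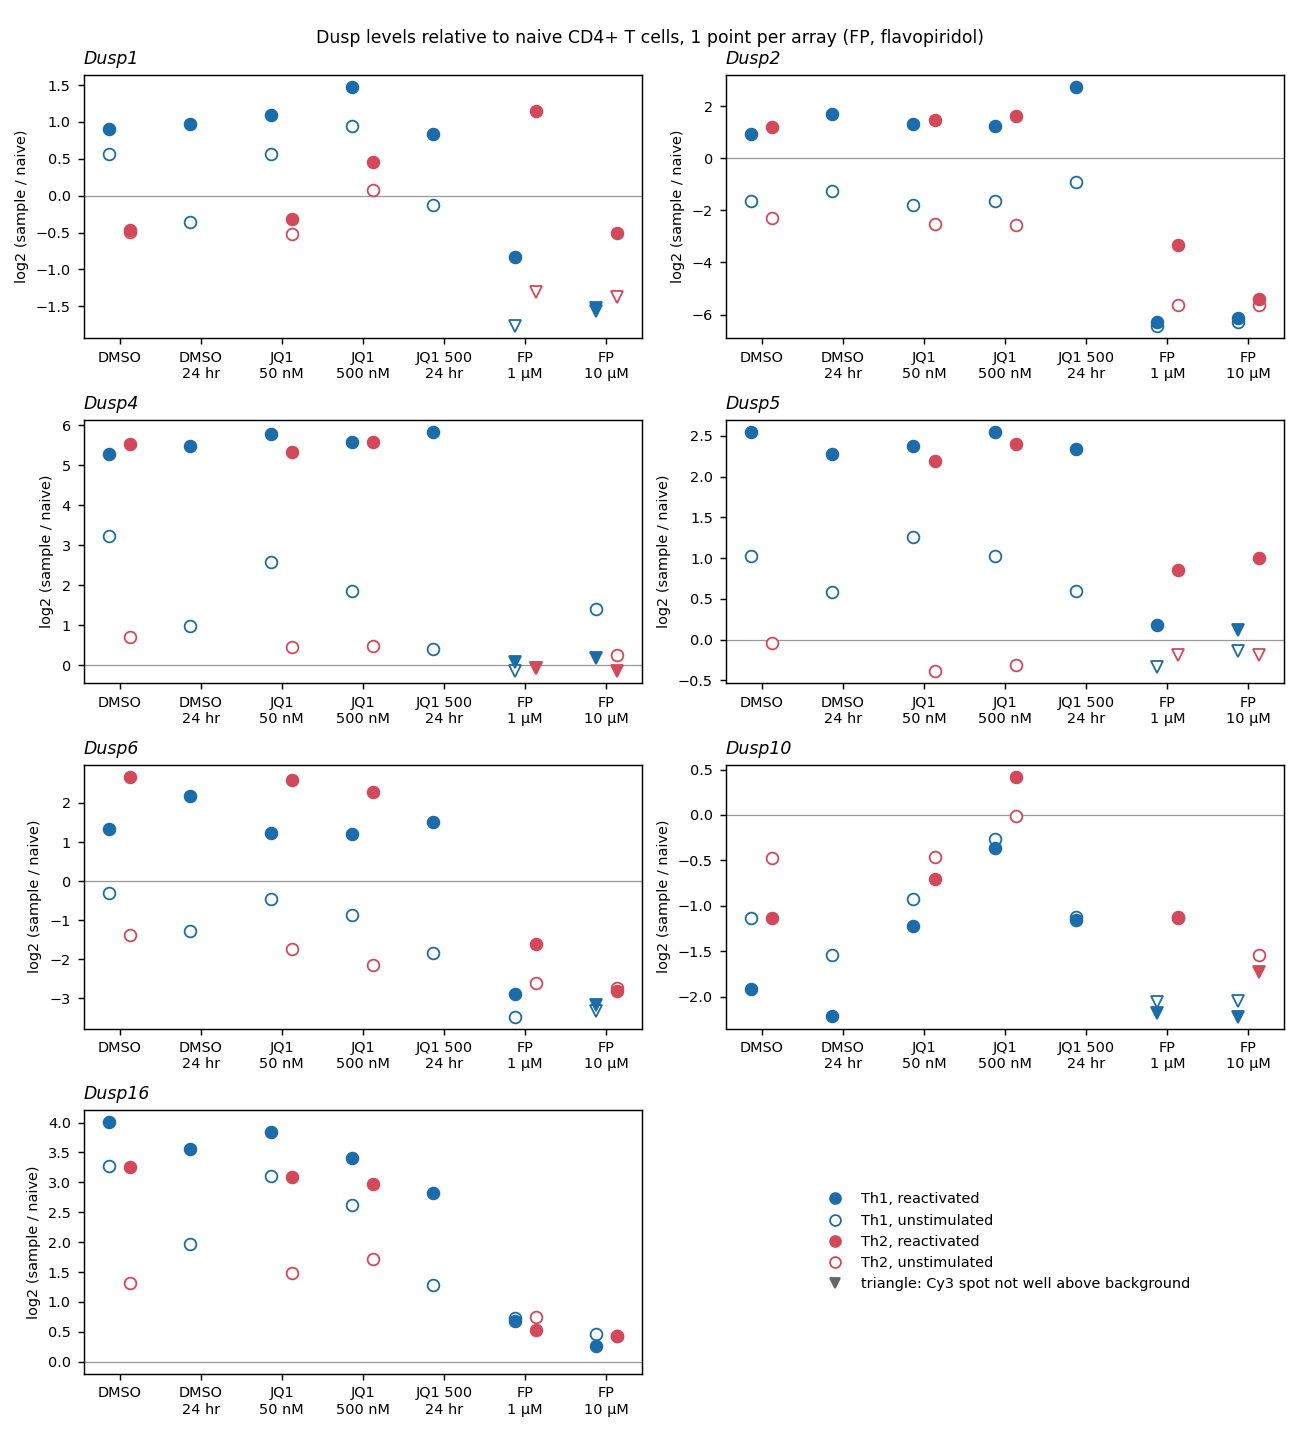
Log2 ratio of sample over naive reference (y axis) for each gene on each array, by treatment (x axis; FP, flavopiridol; 6 hr unless marked), with Th1 in blue, Th2 in red, reactivated cells filled, unstimulated cells open, and triangles where the Cy3 spot was not well above background. Dusp2 lies between -2.58 and 2.75 without flavopiridol and between -6.45 and -3.34 with it, and the Dusp5 spot dropped for its flag is not drawn.

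Under flavopiridol the same comparison over 4 pairs (Th1 and Th2 at both doses) gave no call for the 6 Dusp genes tested, against 0.128% of 10936 genes and 0.0183% lower (14 genes in all; 2491 at an unadjusted p under 0.05). The 4 reactivated arrays had Dusp4 at -0.16 to 0.18, none of them above background, and it was not tested there. Dusp2 was at -6.45, -6.27, -5.65 and -5.64 in unstimulated cells and -6.28, -6.14, -3.34 and -5.41 in reactivated cells. The array of reactivated Th2 cells at 1 µM stood apart from the other 7, by a difference of 2.31 from its unstimulated partner, and the differences of the other pairs were 0.12 to 0.23. The same array had the highest Dusp1 level of the flavopiridol arrays, 1.15 against -1.31 in its partner, whose spot was not above background. Dusp1 was above background on 3 of 4 reactivated and 0 of 4 unstimulated flavopiridol arrays, and its mean change of 1.08 (SE 0.34, adjusted p = 0.154) was not called. Scaled to the spike-in controls by either route, Dusp1, Dusp2, Dusp5 and Dusp6 were called higher, with changes of 0.51 to 1.18. The genes called higher over the whole array went from 12 to 1195 or 610 of 10936, and the median of all genes from -0.041 to 0.15 or 0.055. Like Dusp1, Dusp5 was above background on 3 of 4 reactivated and 0 of 4 unstimulated flavopiridol arrays. Both genes thus entered the test through reactivated arrays alone, and their changes, limited by the floor, are no exact sizes.

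JQ1 left the rises in place. Over 5 pairs (Th1 and Th2 at both doses for 6 hr, and Th1 at 500 nM for 24 hr), 6 genes were higher on reactivation and none lower, against 57.8% of 12658 genes called in either direction, 24% higher and 33.9% lower. The reactivated JQ1 arrays had Dusp4 at 5.34 to 5.84 (median 5.58), above the unstimulated arrays at 0.39 to 2.59 (median 0.48), a change of 4.46 (SE 0.32, adjusted p = 3.75e-05). Dusp2 changed by 3.57 (SE 0.19), Dusp6 by 3.18 (SE 0.42) and Dusp5 by 1.93 (SE 0.23), each without overlap between the states. Dusp16 rose by 1.18 (SE 0.15) and Dusp1 by 0.52 (SE 0.12, adjusted p = 0.00544). The call of Dusp1 was lost at 0.25 and 0.26 with spike-in scaling and 0.26 with median centring. Dusp10 had a change of -0.047 (SE 0.12, adjusted p = 0.757). Its 5 differences were -0.29, -0.10, -0.034, -0.24 and 0.44, all above the -0.78 to -0.66 of the DMSO pairs.

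**Figure D2:**
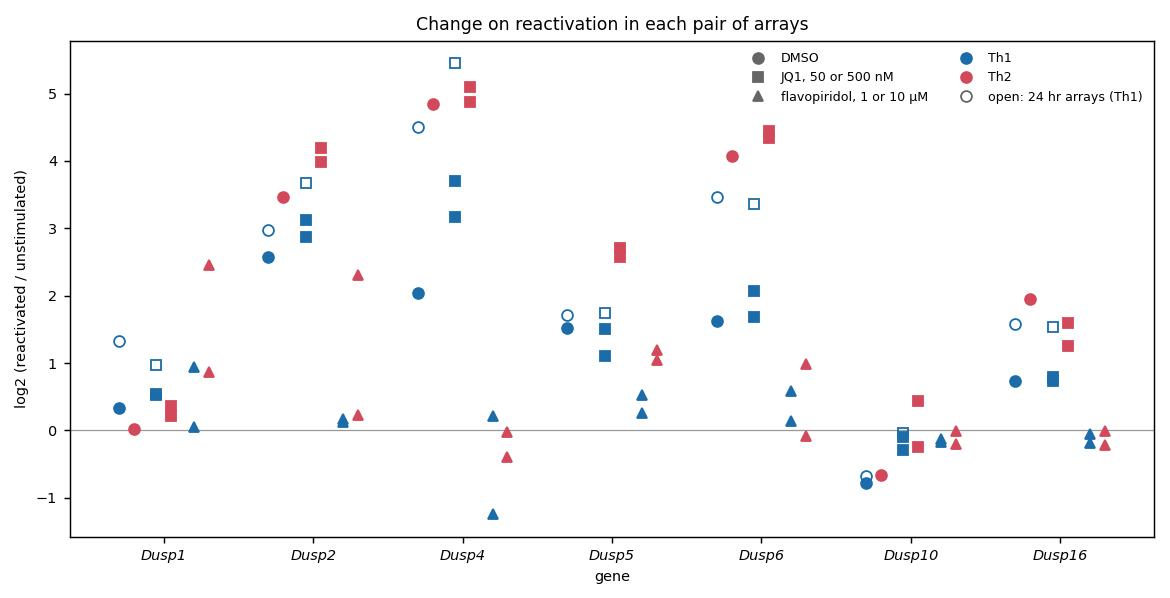
Log2 ratio of reactivated over unstimulated cells (y axis) for each gene (x axis) in each pair of arrays, with circles for DMSO, squares for JQ1, triangles for flavopiridol, blue for Th1, red for Th2 and open symbols for the 24 hr pairs. The Dusp2 pairs lie at 2.57 to 3.47 with DMSO, 2.87 to 4.19 with JQ1 and 0.12 to 2.31 with flavopiridol.

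Flavopiridol at 10 µM was compared with DMSO in 4 contexts (Th1 and Th2, each unstimulated and reactivated). Here 6 genes were lower and none higher, against 48.9% of 12450 genes called and 33.5% lower, and the median of the 7 was -2.57 against -0.22 over all genes. At 1 µM 5 genes were lower, against 51.7% of genes called and 35.5% lower. The comparisons of both doses share their DMSO arrays and are given side by side. The summed signals of the B cell, myeloid and CD8/NK markers were 1590 to 6520, 11700 to 19100 and 379 to 2030 on DMSO arrays and 687 to 1890, 4820 to 15800 and 601 to 2790 on flavopiridol arrays, with 2 to 6 of 6, 2 to 5 of 7 and 1 to 4 of 5 above background, and their part in the result was not tested.

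Dusp2 stood lowest of all genes tested at 10 µM and next to lowest at 1 µM. The 4 DMSO arrays had it at -2.28 to 1.19, the 10 µM arrays at -6.27 to -5.41 and the 1 µM arrays at -6.45 to -3.34. Neither dose overlapped with DMSO, and all 8 flavopiridol spots were above background. The change was -5.41 (SE 0.63, adjusted p = 0.000228) at 10 µM, a 42.5-fold fall (-6.02 without unstimulated Th2 DMSO to -4.76 without reactivated Th1 DMSO), and -4.98 (SE 0.63, adjusted p = 0.000262) at 1 µM. By context, 10 µM gave -4.62 and -7.06 in unstimulated and reactivated Th1 cells and -3.36 and -6.60 in Th2 cells.

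Dusp6 was at -1.39 to 2.67 with DMSO, -3.32 to -2.73 at 10 µM and -3.47 to -1.62 at 1 µM, without overlap at either dose. It changed by -3.59 (SE 0.58, adjusted p = 0.00113) and -3.23 (SE 0.58, adjusted p = 0.00174), with 2 of 4 and 4 of 4 drug spots above background. Dusp4 was at 0.69 to 5.53 with DMSO and -0.16 to 0.063 at 1 µM, where none of the 4 spots was above background. Averaged over both cell types and states, DMSO cells had at least 11.5-fold more signal. By context Dusp4 changed by -5.61 to -0.75 at this dose, least in unstimulated Th2 cells. At 10 µM it changed by -3.27 (SE 0.83, adjusted p = 0.0111; -4.23 without unstimulated and -2.55 without reactivated Th2 DMSO), and the unstimulated Th1 array, at 1.41, overlapped with DMSO. In reactivated cells alone, no 10 µM spot was above background, and the mean DMSO signal exceeded theirs at least 36.8-fold.

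Dusp16 fell from 1.32 to 4.01 with DMSO to 0.27 to 0.46 at 10 µM, above background on all 4 arrays and without overlap. The change was -2.57 (SE 0.42, adjusted p = 0.00119), and -2.30 (SE 0.42, adjusted p = 0.00189) at 1 µM. The flavopiridol arrays for this gene were close together whatever the state or cell type, with a range of 0.27 to 0.74 over all 8. Dusp5 was lower, by -1.23 (SE 0.39, adjusted p = 0.032) at 10 µM and -1.31 (SE 0.39, adjusted p = 0.024) at 1 µM, with its drug and DMSO ranges overlapping and the flagged Th2 spot left out. Its spot was above background on 1 of 4 arrays at 10 µM and 2 of 4 at 1 µM, which limits the fall that can be seen. In unstimulated Th2 cells it differed from DMSO by -0.15 at either dose. Dusp5 was not called with slide as a random block or with a single dose and DMSO in the fit, and with 1 array left out it was called in 5 of 12 refits at 10 µM (-1.80 to -0.67) and 8 of 12 at 1 µM (-1.87 to -0.75).

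Dusp10 was called lower at 10 µM (-0.72, SE 0.18, adjusted p = 0.00906) and not at 1 µM (-0.46, SE 0.18, adjusted p = 0.0548), and its Cy3 spot was above background on only 3 of the 8 flavopiridol arrays. Dusp1 was not called at either dose. Its 10 µM arrays, at -1.57 to -0.50, lay below the DMSO arrays, at -0.49 to 0.91, but 1 of the 4 was above background (-1.38, SE 0.54, adjusted p = 0.0636). At 1 µM the reactivated Th2 array had 1.61 more Dusp1 than DMSO, the single higher value among the 8 flavopiridol differences of this gene. In Th1 cells alone Dusp1 was called at both doses, at -2.29 and -2.04, but neither Th1 spot at 10 µM and only the reactivated one at 1 µM was above background, so these are no exact sizes.

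Loess sets the middle of each array to the reference. Scaled to the spike-in controls, the median of all genes at 10 µM moved from -0.22 to -1.65 (centring in place of loess) or -1.35 (shift after loess). The split of calls over all genes went from 1916 higher and 4173 lower to 24 and 11290 or 108 and 9901. All 7 Dusp genes were then called lower at both doses. Dusp2 was at -6.94 and -6.54, Dusp16 at -3.44 and -3.70, Dusp1 at -3.07 and -2.50 and Dusp10 at -2.50 and -1.85, each further down than the median gene.

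Whether flavopiridol acted differently in reactivated cells was tested at 10 µM by the difference of the changes. Of the 7 genes, 2 had a larger fall in reactivated cells, against 15.8% of 12450 genes called, 8.89% higher and 6.94% lower. The Dusp4 change was -1.82 and -0.45 in unstimulated Th1 and Th2 cells and -5.10 and -5.69 in reactivated cells, a difference of -4.26 (SE 0.74, adjusted p = 0.0117). No reactivated 10 µM spot of Dusp4 was above background, so these falls are limited by the floor and the difference is no exact size. For Dusp6 the values were -3.02, -1.34, -4.51 and -5.49 in the same order, a difference of -2.82 (SE 0.65, adjusted p = 0.0292), and neither Th1 spot at 10 µM was above background, so that its Th1 values are limited by the floor too. Dusp2 had a difference of -2.84 (SE 0.87, adjusted p = 0.069), which was not called. With 1 array left out Dusp4 was called in 9 of 12 refits (-5.27 to -3.25), losing the call without unstimulated Th1, unstimulated Th2 or reactivated Th2 cells at 10 µM, and Dusp6 in 6 of 12 (-3.73 to -1.91). With slide as a random block 5 of the 7 were called, and 3922 of all 12450 genes in place of 1971. Dusp6 was not called with median centring (-2.63, adjusted p = 0.0548), spike-in centring (-2.94, adjusted p = 0.0886) or shift (-3.01, adjusted p = 0.0998), and Dusp4 was not called with spike-in centring (-3.67, adjusted p = 0.0687). Between Th1 and Th2 cells no difference in the 10 µM change was called for any of the 7, against 0.0161% of genes (2 genes; 1609 at an unadjusted p under 0.05).

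**Figure D3:**
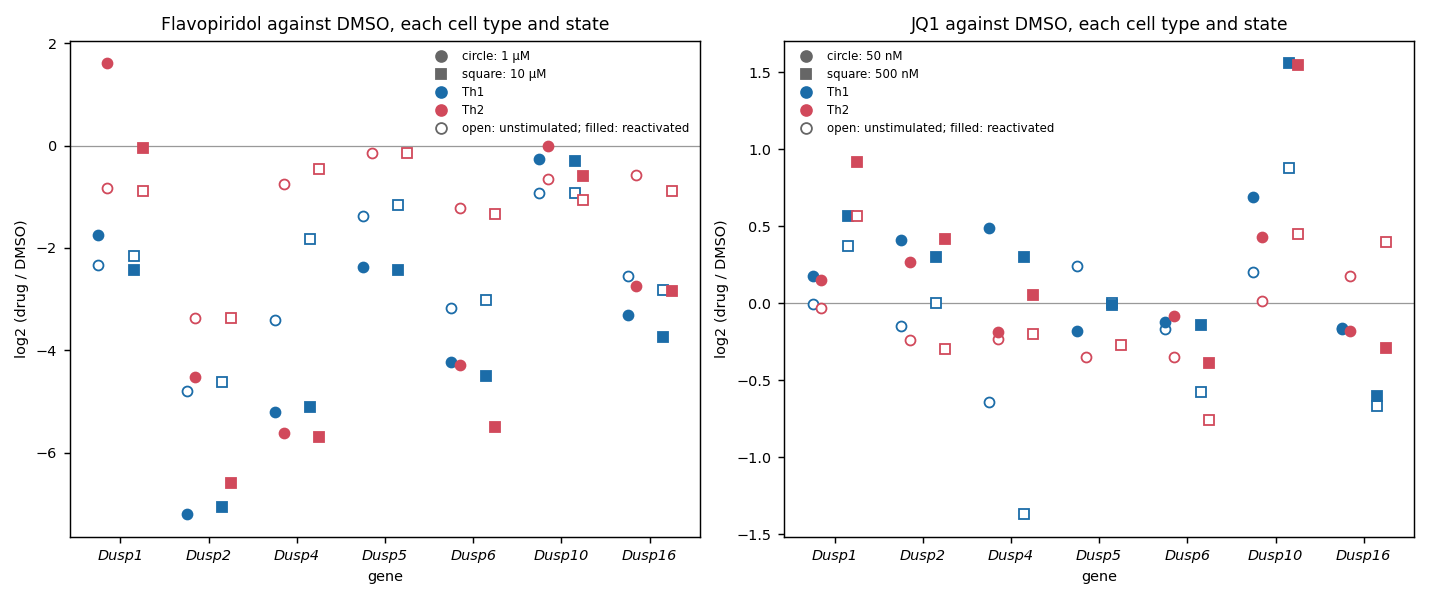
Log2 ratio of drug over DMSO (y axis) for each gene (x axis) in each context at 6 hr, for flavopiridol (left; circles 1 µM, squares 10 µM) and JQ1 (right; circles 50 nM, squares 500 nM), with Th1 in blue, Th2 in red, open symbols for unstimulated and filled for reactivated cells; the y axes differ. With 10 µM flavopiridol Dusp2 lies at -7.06 to -3.36, and with 500 nM JQ1 Dusp10 lies at 0.45 to 1.56.

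JQ1 at 500 nM gave changes in both directions. Over the same 4 contexts, 2 genes were higher, 1 was lower and 4 were not called, against 47.6% of 12914 genes called, 17.7% higher and 29.9% lower. The median of the 7 was -0.068, near the -0.073 of all genes.

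Dusp10 was the gene with the largest change. With DMSO it was at -1.13 and -1.92 in unstimulated and reactivated Th1 cells and -0.47 and -1.13 in Th2 cells, and with 500 nM JQ1 at -0.26 and -0.36 and at -0.015 and 0.42. No JQ1 array overlapped with a DMSO array, and the mean change was 1.11 (SE 0.16, adjusted p = 0.000307). Within the slide that held both Th1 treatments the differences were 0.88 and 1.56, and across slides in Th2 cells 0.45 and 1.55. They were larger in reactivated cells, and this difference of 0.89 (SE 0.17, adjusted p = 0.014) was the single call among the 7, against 10.1% of genes called, 4.49% higher and 5.62% lower. With 1 array left out it was called in 9 of 12 refits (0.73 to 1.05), and not without reactivated Th1 DMSO, unstimulated Th2 DMSO or unstimulated Th2 cells with 500 nM JQ1. At 24 hr in Th1 cells, which the fit left out, the differences were 0.42 unstimulated and 1.05 reactivated, within 1 slide. At 50 nM the 4 differences were 0.20, 0.69, 0.015 and 0.43 (mean 0.34, SE 0.16, adjusted p = 0.411).

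Dusp1 was higher by 0.61 (SE 0.093, adjusted p = 0.000423), with 0.37 and 0.57 in unstimulated and reactivated Th1 cells and 0.57 and 0.92 in Th2 cells. All 4 contexts rose, although the JQ1 range of 0.082 to 1.48 overlapped with that of DMSO. At 24 hr the Th1 differences were 0.23 and -0.13. Dusp6 was lower by 0.47 on the log2 scale (change -0.47, SE 0.10, adjusted p = 0.00288), with -0.58, -0.14, -0.76 and -0.39 in the same order and -0.57 and -0.67 at 24 hr.

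The calls of Dusp10 and Dusp1 depended on the scaling, though not alike. With median centring Dusp10 was still called (0.78, adjusted p = 0.00071) and Dusp1 was not (0.27, adjusted p = 0.107). The spike-in ratio after loess was 0.899 on the reactivated Th1 array with 500 nM JQ1 and -0.834 to -0.263 on the other arrays of that slide. With spike-in centring or shift the median of all genes for 500 nM JQ1 was -0.54 or -0.64, Dusp10 was at 0.52 or 0.54 and Dusp1 at 0.01 or 0.04, none of them called (all genes, 112 higher and 5278 lower or 88 and 4942, against 2282 and 3862), while Dusp4, Dusp6 and Dusp16 were called lower, at -0.78 or -0.87, -1.06 or -1.03 and -0.81 or -0.85. The larger Dusp10 change in reactivated cells turned to -0.17 or -0.31 and was not called, with all genes at -1.03 or -1.21. The mean 500 nM change of Dusp10 itself lay above 0 under both spike-in scalings, and that of the median gene below 0.

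Dusp2 (0.11, SE 0.12), Dusp5 (-0.068, SE 0.12), Dusp4 (-0.31, SE 0.22) and Dusp16 (-0.29, SE 0.15) were not called at 500 nM. With median centring, as with both spike-in scalings, Dusp4 (-0.51, adjusted p = 0.0305) and Dusp16 (-0.55, adjusted p = 0.0131) were called lower. The Dusp4 differences were -1.37 and 0.30 in unstimulated and reactivated Th1 cells and -0.20 and 0.051 in Th2 cells. In Th1 cells Dusp16 was at -0.67, -0.60, -0.69 and -0.73 relative to DMSO (unstimulated and reactivated at 6 hr, then at 24 hr), while Th2 cells had 0.40 and -0.29, and the difference between Th1 and Th2 was not called for any of the 7 (0% of genes, 907 at an unadjusted p under 0.05; Dusp16 -0.69, SE 0.22, adjusted p = 0.551). At 50 nM no Dusp gene was called, against 0.341% of 12914 genes (44 genes; 1701 at an unadjusted p under 0.05), and their changes were -0.18 to 0.34.

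Th1 and Th2 cells were compared over 6 conditions without flavopiridol. In Th1 cells 3 genes were higher and 1 lower, against 28.6% of 12914 genes called. The JQ1 arrays of Th1 and Th2 lay on different slides and the DMSO arrays on the same one, and each cell type may have come from a single culture, so that culture and cell type cannot be told apart. The summed signal of 6 B cell markers was 863 to 2250 in these Th1 arrays and 2900 to 6520 in the Th2 arrays, with 4 to 5 and 5 to 6 of the 6 above background (Blnk on all 24 arrays), and that of 7 myeloid markers was 11800 to 15200 and 14400 to 19100, with Lyz2 never above background, Csf1r and Itgam on all 24 arrays and Mpo on 19. For 5 markers of CD8 and NK cells it was 540 to 2030 and 372 to 487, with Klrb1c never above background, Cd8b1 on 21 arrays, Klrd1 on 16 and Cd8a on 13, and Klrd1 was higher in reactivated Th1 than Th2 cells with DMSO by 3.86. The part of such cells in the differences was not tested.

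Dusp1 differed by a similar amount in each of the 6 conditions compared. Its level was 0.57 to 1.48 on the 6 Th1 arrays and -0.52 to 0.45 on the 6 Th2 arrays, and Th1 exceeded Th2 by 0.86 to 1.40 (mean 1.14, SE 0.085, adjusted p = 8.36e-05). The unstimulated Th1 arrays at 24 hr, which had no place in this comparison, were at -0.36 with DMSO and -0.13 with JQ1, inside the Th2 range. The reactivated Th1 arrays at 24 hr were at 0.97 with DMSO and 0.84 with JQ1, above the Th2 range. The Th2 DMSO arrays may themselves be from 24 hr, while the Th2 JQ1 arrays are labelled 6 hr. The part of treatment time in the difference was not tested. Dusp16 was higher by 1.07 (SE 0.19, adjusted p = 0.00471) and Dusp5 by 0.88 (SE 0.23, adjusted p = 0.028), and Dusp10 was lower by 0.58 on the log2 scale (change -0.58, SE 0.085, adjusted p = 0.00185), in 6 of 6 conditions. The Dusp5 call held in 6 of 12 refits with 1 array left out (0.68 to 1.06), was lost with the flagged spot kept (0.60) and its value was -0.023 in the table the authors deposited.

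For several genes the difference between Th1 and Th2 depended on the state. Unstimulated Th1 cells had more Dusp6 than Th2 cells by 1.1 with DMSO, 1.28 at 50 nM and 1.29 at 500 nM JQ1. After reactivation the order was reversed, at -1.33, -1.37 and -1.09. The mean over all conditions was -0.021 (SE 0.43, adjusted p = 0.977) and hid both. The difference between the states was therefore tested as well, a comparison added after these values had been seen. It was -2.49 for Dusp6 (SE 0.13, adjusted p = 7.7e-06), -1.97 for Dusp4 (SE 0.28, adjusted p = 0.00143), -1.19 for Dusp5 (SE 0.18, adjusted p = 0.00278), -1.03 for Dusp2 (SE 0.13, adjusted p = 0.00091) and -0.84 for Dusp16 (SE 0.24, adjusted p = 0.0332). So 5 genes had a smaller rise on reactivation in Th1 than in Th2 cells, against 19.9% of 12914 genes called, 10.2% higher and 9.7% lower, while Dusp1 (0.26, SE 0.14) and Dusp10 (-0.24, SE 0.14) were not called. With spike-in centring or shift the same number of Dusp genes was called lower, with the median of all genes at -0.30 or -0.48. With 1 array left out Dusp16 was called in 2 of 12 refits (-1.14 to -0.61) and the other 4 genes in all 12.

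For Dusp4 and Dusp5 the levels show in which state the cell types differed. Dusp4 was 1.86 to 3.24 in the 3 unstimulated Th1 arrays and 0.46 to 0.69 in the Th2 arrays, and 5.27 to 5.77 against 5.34 to 5.58 after reactivation. It was thus the unstimulated arrays that differed, and the reactivated levels overlapped. Dusp5 had the same form, with 1.03 to 1.26 against -0.39 to -0.041 before and 2.37 to 2.55 against 2.19 to 2.40 after. This leaves out the flagged Th2 array, which would be at 3.33, above the reactivated Th1 arrays. Dusp2 and Dusp16 had other forms. Th1 minus Th2 was -0.39 to 0.93 for Dusp2, above 0 in unstimulated and below 0 in reactivated cells. For Dusp16 it was 0.44 to 1.96, above 0 in both states. Th1 cells at 24 hr with DMSO were nearer to Th2 cells before reactivation, at 0.98 for Dusp4 and -1.27 for Dusp6, and had a larger rise than Th1 cells at 6 hr. The treatment time of the Th2 DMSO arrays is uncertain, and its part was not tested. The Th2 JQ1 arrays at 6 hr gave the same order, but lay on another slide than the Th1 JQ1 arrays.

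**Figure D4:**
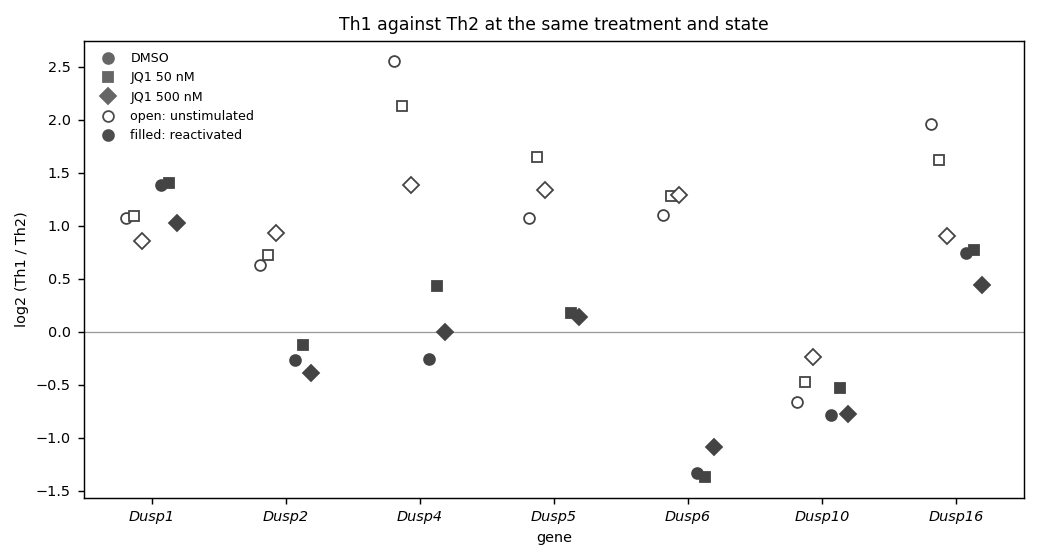
Log2 ratio of Th1 over Th2 (y axis) for each gene (x axis) at the same treatment and state, with open symbols for unstimulated and filled for reactivated cells, circles for DMSO, squares for 50 nM and diamonds for 500 nM JQ1. Dusp6 lies at 1.1 to 1.29 in unstimulated and -1.37 to -1.09 in reactivated cells, and Dusp1 at 0.86 to 1.40 throughout.

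Over the 24 arrays, which share the reference and the drug and state groups, the Dusp genes were correlated to different degrees. Pearson's r was 0.83 to 0.946 among Dusp2, Dusp4, Dusp5, Dusp6 and Dusp16, 0.622 to 0.773 between Dusp1 and these 5, and 0.154 to 0.426 between Dusp10 and the other 6. Without the flavopiridol arrays the values for Dusp1 with these 5 were 0.339 to 0.722, and those for Dusp10 were all negative (-0.382 to -0.154, 15 or 16 arrays). The genes with the most similar pattern were Bag5, Rbm12 and Csrnp1 for Dusp2 (r = 0.982, 0.98 and 0.974), and Bcl2a1d, Creb3l2 and Sik1 for Dusp4 (0.977, 0.975 and 0.974). For Dusp6 they were Srfbp1, Tnfsf14 and Sik1 (0.973, 0.971 and 0.969), and for Dusp16 Nfkb2, Stx11 and Chac1 (0.976, 0.973 and 0.971). Slc5a3, Plk3 and Slc7a1 were nearest to Dusp5 (0.96, 0.955 and 0.95), Irs2, Ppp1r15a and Angptl4 to Dusp1 (0.931, 0.918 and 0.914), and H3f3a, Gm12657 and Itpr1 to Dusp10 (0.904, 0.9 and 0.898).

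Other genes of MAPK signalling, 94 on the array in 7 lists, were read for comparison. On reactivation without drug 21 of 81 tested were higher and 26 lower, 58% in all, against 51% of all genes (21.9% higher and 29% lower). Of 17 other proteins that restrain MAPK signalling, 7 were higher and 6 lower, 76.5% against the same 51%. Spry1, an inhibitor of receptor signalling to ERK, rose by 5.20 (SE 0.34) and Ptpn5, a tyrosine phosphatase of ERK and p38, by 3.04 (SE 0.13), while Rasa3, a GTPase-activating protein of Ras, had -3.00 (SE 0.27). Among the kinases, Map2k3, which activates p38, rose by 2.39 (SE 0.21), while Map2k6, which also activates p38, had -2.12 (SE 0.14) and Map2k5 -1.58 (SE 0.17). Mapk6 rose by 1.90 (SE 0.16) and Mapk3, which encodes one of the ERK kinases, had -1.64 (SE 0.15). The atypical phosphatases Dusp12 and Dusp14 rose by 1.57 and 1.22, and Dusp23 had -1.46. Of the remaining MAPK phosphatases, Dusp7 had -0.85 and Dusp9 0.56. Among the effectors, Mapkapk2, a kinase downstream of p38, rose by 1.82, and the ETS factors Etv5 and Etv4 rose by 1.62 and 1.57.

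With 10 µM flavopiridol 11 of 82 of these genes were higher and 33 lower (53.7%, median -0.42), against 48.9% of all genes (15.4% higher, 33.5% lower, median -0.22). Spry1 had -3.25 (SE 0.84), Elk1, an ETS factor phosphorylated by MAP kinases, -2.38 and Dusp14 -2.35, while Mapk3 rose by 2.00 and Mapk13, a p38 kinase, by 1.96. With 500 nM JQ1 20 were higher and 25 lower of 82 (54.9%), against 47.6% of all genes (17.7% higher and 29.9% lower). Elk3 had -2.18 (SE 0.10), Ptpn5 -1.81, Ptpn7, a lymphocyte phosphatase of ERK, -1.31, and Map4k1 -1.25, while Mknk2, a kinase downstream of ERK, rose by 1.58 and Etv5 by 1.55. All changes named in these lists passed the test (adjusted p at most 0.0367).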

How the data were processed

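RNA of the 24 samples and of the naive reference was labelled by the submitters with a low-input amplification kit and hybridized to 2-colour mouse arrays, without dye swap. The deposited scanner files hold spot intensity in both channels and a log10 ratio from Agilent Feature Extraction 10.7.1.1, per the file headers. The authors also deposited a table of processed log2 ratios for 34710 of the 55681 probes, which was used as an alternative and has no Dusp1.

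Median intensities were background-corrected (normexp, offset 50), normalized within arrays by loess with control and outlier-flagged spots at weight 0, and turned to log2 of Cy3 (sample) over Cy5 (reference), with limma 3.58.1 in R 4.3.3. Repeated spots were averaged, flagged spots were left out, and a gene was read from its brightest probe. Probes were named by accession (26425) or name (12) through a RefSeq table, and 29244 had no symbol. Genes well above background in Cy3 on at least 3 arrays of a fit were tested with lmFit and eBayes, with context, pair or condition as a block, and Benjamini-Hochberg adjustment over all genes (threshold 0.05). The number of arrays limits the precision. The script was tested on simulated data.

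Genes named outside the family were the 3 with the largest called change in each list and comparison and the 3 with the highest correlation to each Dusp gene. Some genes that this rule names are not reported here. The members, lists and tests were chosen with earlier results of these data known. Alternatives covered the scaling, background, filters, probe choice, the deposited table, slide as a random block, the blocks, and each array left out in turn. Spike-in centring replaced loess by subtraction of the mean of the spike-in probes, and spike-in shift subtracted their mean after loess.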

Additional observations from a re-analysis of the deposited data

Results flagged for a closer look

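The change with 10 µM flavopiridol differed between reactivated and unstimulated cells for Dusp4, by -4.26, and for Dusp6, by -2.82 (log2, limma interaction term). The Dusp4 value is limited by the floor, since neither reactivated 10 µM spot was above background. The Dusp6 value is limited by it in Th1 cells, where neither 10 µM spot was above background. With JQ1 at 500 nM the same kind of difference was called for Dusp10, at 0.89. The calls of Dusp6 with flavopiridol and of Dusp10 with JQ1 were lost with median centring and with both spike-in scalings. The difference between Th1 and Th2 cells changed with the state for 5 genes: by -1.03 for Dusp2, -1.97 for Dusp4, -1.19 for Dusp5, -2.49 for Dusp6 and -0.84 for Dusp16. Each value is a test of the difference itself. The last comparison was added after the Th1 and Th2 values had been seen, so its values describe what prompted it and are no independent evidence.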

How the results depend on the processing

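Of 1188 values of single Dusp genes under other settings, 1047 kept their direction and side of the threshold, 43 changed sign without being called under either, 46 lost the call, 45 gained it and 7 reversed. Counts below are of the 7 Dusp genes called. For reactivation under flavopiridol 4 were called with spike-in centring and 4 with spike-in shift, against 0. Requiring signal above background on every array left 2 at 10 µM and 2 at 1 µM flavopiridol, since fewer genes could be tested. For the flavopiridol difference between states (2) the count was 1 with median centring, 0 with spike-in centring, 1 with spike-in shift, 0 with the scanner software's ratio, 0 with the strict background filter, 5 with slide as a random block and 1 without the context block. For the flavopiridol difference between Th1 and Th2 it was 1 with spike-in shift, against 0. Without the block 1 was called for 500 nM JQ1 (against 3) and 1 for Th1 against Th2 (against 4). For the JQ1 difference between states (1, Dusp10, higher) it was 0 with median centring, and 0 with the software's ratio, without the block and with a single dose. With either spike-in scaling it was 3, all lower and none of them Dusp10: Dusp1, Dusp5 and Dusp16 (-1.34 and -1.51), with 10040 and 10827 of all genes also called lower. For the state dependence of Th1 against Th2 (5) the deposited table gave 3. Beyond these settings the cause was not tested.

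Reversed values were, for the JQ1 difference between states with spike-in centring and shift, -0.79 and -0.92 (Dusp1), -1.10 and -1.12 (Dusp5) and -0.17 and -0.31 (Dusp10), and -0.023 for Dusp5 in Th1 against Th2 in the deposited table.

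With each array left out in turn the counts were 5 to 7 for reactivation without drug, 0 under flavopiridol, 6 under JQ1, 5 to 7 at 10 µM and 4 to 7 at 1 µM flavopiridol, 0 to 4 for its difference between states, 0 for that between cell types, 3 to 4 at 500 nM and 0 at 50 nM JQ1, 0 to 1 for the JQ1 difference between states, 0 for that between cell types, 3 to 5 for Th1 against Th2 and 4 to 5 for its state dependence. The flavopiridol difference between states fell to 0 without unstimulated Th1, unstimulated Th2 or reactivated Th2 cells at 10 µM, and the JQ1 difference to 0 without reactivated Th1 or unstimulated Th2 DMSO.

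Counts over all genes ranged, against the value in brackets, from 1 to 1234 for reactivation under flavopiridol (14), 3457 to 7432 under JQ1 (7319), 4076 to 11314 at 10 µM (6089), 4354 to 10624 at 1 µM (6438), 82 to 3922 and 0 to 2061 for its differences between states (1971) and cell types (2), 901 to 6565 at 500 nM (6144), 0 to 937 at 50 nM (44), 4 to 10832 for the JQ1 difference between states (1306), 436 to 3996 for Th1 against Th2 (3695) and 1207 to 2764 for its state dependence (2574). Signals near background, as of Dusp1, Dusp4, Dusp5, Dusp6 and Dusp10 with flavopiridol, limit the folds that can be seen.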
